A study of Homo sapiens with 24 samples.

Results

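The proteasome subunit genes were taken as every gene whose current symbol begins with PSMA, PSMB, PSMC or PSMD followed by a number, without the immunoproteasome genes PSMB8, PSMB9 and PSMB10. The rule gives 36 symbols, and 33 of them were found among the 24053 genes of the table. PSMA8, PSMB3 and PSMB11 were not analysed here. All 33 genes were expressed above the minimum for testing, a mean of 1 TPM (the usual RNA-seq abundance unit, which corrects for transcript length and gives every sample an equal total).

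The cells were ARPE-19, an established human line of retinal pigment epithelium, and RNA was sequenced after one of 4 siRNA treatments. One group received scramble siRNA, one Pink1 siRNA, one Nrf2 siRNA and one both together (Nrf2-Pink1 siRNA, called the double siRNA here). Each group had 3 biological samples, each measured as 2 technical replicates that were averaged, which gave 12 samples from 24 columns. Some labels speak of knockout or KD for what the design describes as siRNA, and the protocols mention scratch wounding without saying whether the sequenced cells had been wounded. Every sample is of this 1 cell line, and siRNA lowers a message without removing the gene.

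The proteasome degrades proteins that carry ubiquitin. Its core particle is a barrel of stacked rings, in which alpha subunits form the gated outer rings and beta subunits the inner rings that hold the cutting sites. The regulatory particle caps the barrel: its base holds a ring of ATPases that unfold the substrate, and its lid removes ubiquitin. Expression of the subunit genes is known to be raised together by the transcription factor NRF1 (gene NFE2L1) when the proteasome is impaired, and NRF2 (gene NFE2L2) has been described to raise some of them under oxidative stress. PINK1 is a kinase that marks damaged mitochondria for removal, a process in which ubiquitin chains and the proteasome take part.

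The targeted messages were lower where they were targeted. PINK1 averaged 55.8 ± 1.93 TPM (SD, n = 3) in scramble, 14.6 ± 3.22 with Pink1 siRNA and 18.7 ± 2.93 with the double siRNA. NFE2L2 averaged 80.7 ± 7.69 TPM in scramble, 20.03 ± 7.72 with Nrf2 siRNA and 28.9 ± 6.16 with the double siRNA. These reductions passed the test, as did that of NQO1, a quinone reductase and classical NRF2 target, from 160 ± 6.67 TPM in scramble to 44.5 ± 4.79 with Nrf2 siRNA (log2 difference -1.83, adjusted p = 0.000489). Of the cell identity markers, RPE65, the visual cycle isomerase that defines mature pigment epithelium, lay between 0 and 0.36 TPM in all samples. MITF and OTX2, transcription factors of the pigment epithelium, averaged 60.9 ± 3.28 and 57.5 ± 3.44 TPM in scramble, and BEST1, a chloride channel of this tissue, 5.90 ± 1.05 TPM. Other markers of the same list were low in scramble: SERPINF1 was at 0 TPM, and RLBP1 and TYR averaged 0.725 ± 0.52 and 0.402 ± 0.18 TPM. Of the 14 listed identity markers, 12 were found. The keratins KRT8 and KRT18 were abundant, with group means from 775 to 940 TPM for KRT8. The depth of the samples is unknown, and the identifier ENSG00000226958, which has no symbol in the name table, took from 15.5% of all TPM in replicate 3 of the double siRNA to 41.4% in replicate 1 of the same group.

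In scramble samples the subunit messages were all readily measured, with a 14.6-fold range between the lowest and the highest. The median gene stood at 103 TPM. PSMD2, the large base subunit that docks substrates and shuttle factors, was the highest at 354 ± 22.9 TPM. PSMA1 of the alpha ring followed at 236 ± 14.1 TPM and PSMB1 of the beta ring at 232 ± 8.83 TPM. PSMD5, a chaperone that helps to assemble the base and leaves the finished particle, was the lowest at 24.2 ± 1.31 TPM. PSMD12 of the lid stood at 34.4 ± 3.92 TPM and PSMB2 of the beta ring at 38.8 ± 1.10 TPM.

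**Figure D1:**
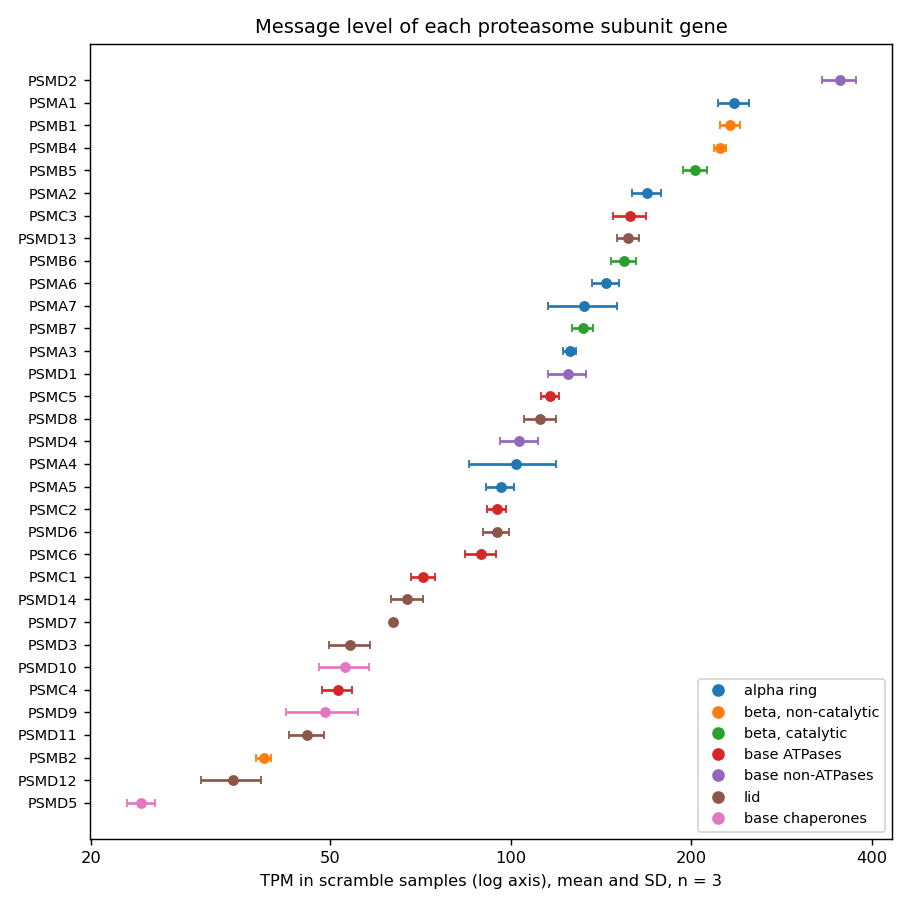
TPM of each of the 33 subunit genes in the scramble samples on a log axis, as the mean with its SD (n = 3), coloured by role. Levels run from 24.2 TPM for PSMD5 to 354 TPM for PSMD2. Base chaperones lie between 24.2 and 53.0 TPM and alpha ring genes between 96.2 and 236 TPM.

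By role, the median level in scramble was 133 TPM for the 7 alpha subunits, 154 TPM for the 3 catalytic beta subunits, 92.0 TPM for the 6 base ATPases, 65.5 TPM for the 8 lid subunits and 49.0 TPM for the 3 base chaperones. Partners in the same ring differed widely: PSMB1 and PSMB2 of the beta ring stood at 232 and 38.8 TPM, and the base ATPases ran from 51.4 TPM for PSMC4 to 158 TPM for PSMC3. The median SD of a subunit gene on the log2 scale was 0.064 between technical replicates. Between biological samples it was 0.080 in scramble, 0.16 with Pink1 siRNA, 0.15 with Nrf2 siRNA and 0.34 with the double siRNA, so the double-siRNA group carried the most spread.

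The promoters were searched for the core of the antioxidant response element, TGACNNNGC, which NRF1 and NRF2 bind with a small MAF partner, because both factors are known to act on these genes. RefSeq promoter windows (build GRCh38.p14, 250 bases before to 50 bases after the start) were given for 28 of the 33 genes. The motif was present on either strand in 8 of the 28, or 28.6%, against 16.1% of 27305 genes with windows of the same length. Those genes were not limited to the ones expressed here. Of 10 matches, 7 lay upstream of the start, in 6 genes; the 29 bases around each are shown 5′ to 3′ on the strand that carries the motif, with the motif in capitals.
PSMA4, alpha ring, chr15:78540650-78540678, plus strand: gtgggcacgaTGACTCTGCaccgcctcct
PSMC5, base ATPase, chr17:63827654-63827682, minus strand: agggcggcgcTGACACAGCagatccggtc
PSMD3, lid, chr17:39980760-39980788, plus strand: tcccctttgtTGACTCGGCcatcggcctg
PSMD12, lid, chr17:67366724-67366752, minus strand: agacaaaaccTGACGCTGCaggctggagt
PSMD5, base chaperone, chr9:120843038-120843066, minus strand: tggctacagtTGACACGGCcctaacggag
PSMD9, base chaperone, chr12:121888631-121888659, minus strand: gcgcctgtggTGACCCGGCaggagtagcg
PSMD9, base chaperone, chr12:121888678-121888706, plus strand: cggcttccggTGACCCAGCtccgccctaa

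The site of PSMA4 ends 118 bases before its start, that of PSMD5 126 bases and that of PSMD3 29 bases. PSMC4, PSMD1 and a second match of PSMD3 hold the motif after the start. A second motif, CCAAT, which the factor NF-Y binds, was present in 15 of the 28 genes, or 53.6%, against 39.7% of all genes with windows. Both motifs were found in PSMA4, PSMC5 and PSMD3. A match of letters is a description of the window and does not show binding in these cells.

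Against scramble, no subunit gene passed the test with any siRNA (limma on log2(TPM + 1), 13810 genes tested, called at an adjusted p under 0.05). With Pink1 siRNA 0 of 33 were called, against 0.471% of all genes. With Nrf2 siRNA 0 of 33 were called, against 0.333% of all genes, and with the double siRNA 0 of 33, against 0.753%. A count of 0 in 33 is near each of these shares. At an unadjusted p under 0.05, 4 subunit genes were lower in each of the 3 comparisons, where 4.57%, 4.23% and 6.48% of all genes were lower at that level.

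The subunit genes nevertheless lay mostly on the lower side. With Pink1 siRNA 29 of 33 had a log2 difference below 0, against 46.7% of all genes, and their median was -0.16 against 0.02 for all genes. With Nrf2 siRNA 28 of 33 lay below 0, against 47.5%, with a median of -0.17 against 0.02; this median was -0.096 without Nrf2 siRNA replicate 2 and -0.22 without replicate 1. With the double siRNA 24 of 33 lay below 0, against 48.5%, with a median of -0.10 against 0.01; this median was 0.081 without replicate 1 of the double siRNA and -0.27 without replicate 3, so its sign depended on replicate 1. These 3 comparisons share the scramble samples, so they are not separate sightings of the same shift. Nor are the 33 genes independent of each other, because all were measured in the same samples. In bulk RNA, fewer cells with a message and less of it in each cell cannot be told apart.

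The groups were also compared sample by sample, counting a gene as apart and lower when all 3 siRNA samples lay below all 3 scramble samples. With Pink1 siRNA 12 of 33 subunit genes were apart and lower, or 36.4%, against 11.2% of all genes. With Nrf2 siRNA 14 of 33 were, or 42.4%, against 9.26% of all genes. With the double siRNA 4 of 33 were, or 12.1%, against 7.82% of all genes. Genes apart and higher numbered 0, 0 and 1 (PSMC3 with the double siRNA), against 13.8%, 13.6% and 10.2% of all genes.

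**Figure D2:**
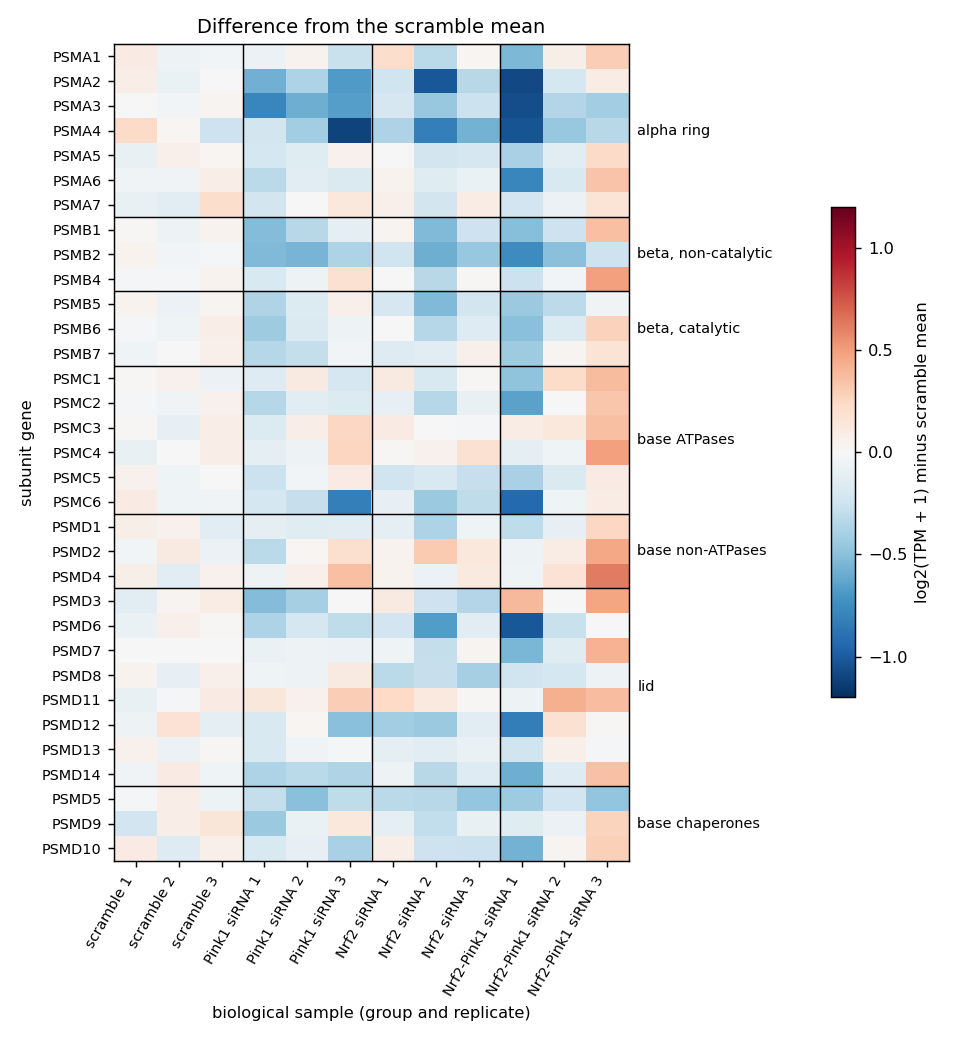
Difference of log2(TPM + 1) from the scramble mean for each subunit gene (rows, grouped by role) in each of the 12 biological samples (columns); blue is lower and red is higher. The scramble columns are pale, replicate 1 of the double siRNA is mostly blue, and replicate 3 of the double siRNA is mostly red.

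The alpha ring, whose N-terminal tails form the gate of the barrel, held the gene with the largest difference in each comparison with scramble. All 7 alpha genes lay below 0 in each comparison with scramble, and none was called. PSMA3 measured 126, 122 and 128 TPM in scramble, 72.6, 83.1 and 78.7 with Pink1 siRNA, 109, 91.5 and 105 with Nrf2 siRNA, and 59.4, 98.3 and 93.5 with the double siRNA. Every siRNA sample of PSMA3 was therefore below every scramble sample, and the Pink1 siRNA samples were also all below the Nrf2 siRNA samples. Its log2 difference from scramble was -0.68 (SE 0.18, adjusted p = 0.128) with Pink1 siRNA, -0.30 (SE 0.18, adjusted p = 0.543) with Nrf2 siRNA and -0.61 (SE 0.18, adjusted p = 0.137) with the double siRNA. With Pink1 siRNA and scramble fitted alone, the Pink1 siRNA difference passed at an adjusted p of 0.0290, and over all alternatives tried its adjusted p ran from 0.00720 to 0.363. Its double-siRNA difference was -0.38 without replicate 1 of that group.

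PSMA4 measured 119, 103 and 85.1 TPM in scramble, 86.6, 75.8 and 46.3 with Pink1 siRNA, 78.2, 57.0 and 68.1 with Nrf2 siRNA, and 49.0, 73.8 and 80.2 with the double siRNA. Scramble itself was wide for this gene, and the Pink1 siRNA group reached into it. The log2 differences were -0.58, -0.58 and -0.61 (SE 0.25 each), with adjusted p values of 0.357, 0.354 and 0.283. The Pink1 siRNA difference was -0.32 without Pink1 siRNA replicate 3 and -0.76 without replicate 1, and the double-siRNA difference was -0.39 without replicate 1 of the double siRNA.

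PSMA2 measured 179, 160 and 168 TPM in scramble, 113, 130 and 105 with Pink1 siRNA, 143, 82.9 and 134 with Nrf2 siRNA, and 79.2, 145 and 180 with the double siRNA. Both single siRNA groups lay below scramble, while replicate 3 of the double siRNA lay above it. The log2 differences were -0.54, -0.53 and -0.40 (SE 0.27 each) and none was called. The Nrf2 siRNA difference was -0.28 without Nrf2 siRNA replicate 2. PSMA1, the most abundant alpha message, measured 252, 226 and 230 TPM in scramble, 224, 243 and 196 with Pink1 siRNA, 273, 189 and 240 with Nrf2 siRNA, and 162, 248 and 290 with the double siRNA. Its groups overlapped throughout. PSMA5, PSMA6 and PSMA7 differed from scramble by between -0.21 and -0.03 on the log2 scale in the 3 comparisons.

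Of the beta subunits, PSMB5, PSMB6 and PSMB7 carry the chymotrypsin-like, caspase-like and trypsin-like cutting sites, and none of the 3 was called. PSMB5 measured 210, 193 and 207 TPM in scramble, 158, 181 and 212 with Pink1 siRNA, 176, 141 and 174 with Nrf2 siRNA, and 149, 163 and 197 with the double siRNA. It was apart from scramble with Nrf2 siRNA alone (log2 difference -0.32, SE 0.16, adjusted p = 0.459); the other two groups overlapped scramble, and the difference between Pink1 siRNA and Nrf2 siRNA was not called either (0.16, SE 0.16). PSMB6 measured 151, 149 and 163 TPM in scramble, 115, 137 and 148 with Pink1 siRNA, 154, 122 and 139 with Nrf2 siRNA, and 109, 138 and 187 with the double siRNA. PSMB7 measured 127, 131 and 137 TPM in scramble, 104, 108 and 128 with Pink1 siRNA, 118, 120 and 137 with Nrf2 siRNA, and 97.9, 135 and 148 with the double siRNA.

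For PSMB6 the Pink1 siRNA samples were all below scramble, by a narrow margin; the double siRNA samples straddled it. The largest mean reduction of a catalytic subunit was that of PSMB5 with Nrf2 siRNA, to 80.5% of the scramble mean.

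Among the non-catalytic beta subunits, which complete the inner rings, PSMB2 had scramble values of 40.0, 37.9 and 38.4 TPM. It measured 26.5, 25.9 and 29.8 TPM with Pink1 siRNA, 32.7, 25.5 and 28.01 with Nrf2 siRNA, and 22.6, 27.2 and 32.4 with the double siRNA. All 9 siRNA samples were below all 3 scramble samples. The log2 differences were -0.49, -0.43 and -0.50 (SE 0.15 each), with adjusted p values of 0.213, 0.266 and 0.157. PSMB4 did not share this: it measured 221, 220 and 230 TPM in scramble, 196, 214 and 253 with Pink1 siRNA, 223, 177 and 225 with Nrf2 siRNA, and 187, 219 and 315 with the double siRNA, so that the groups overlapped. PSMB1 differed from scramble by -0.32, -0.25 and -0.13 and was apart from it with Pink1 siRNA.

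**Figure D3:**
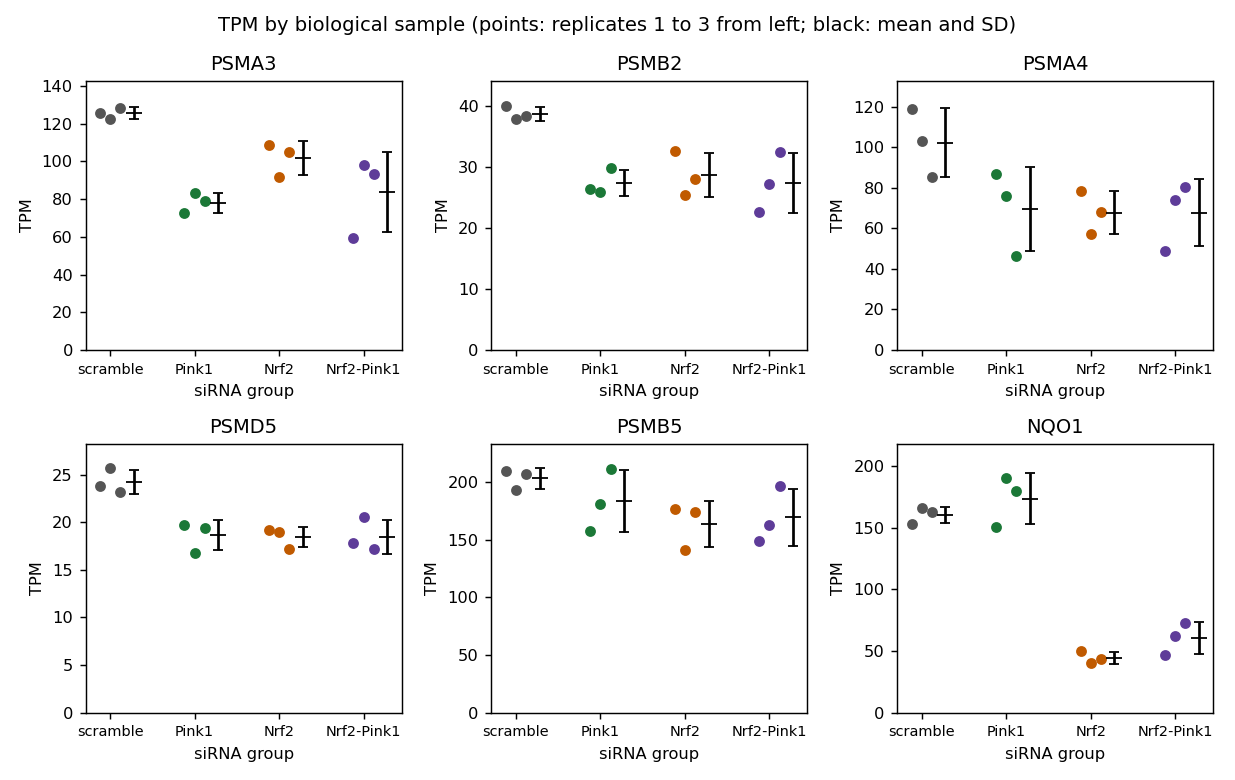
TPM in each biological sample (points, replicates 1 to 3 from the left) with the group mean and SD (black, n = 3) for PSMA3, PSMB2, PSMA4, PSMD5 and PSMB5 and for the NRF2 target NQO1. PSMB2 runs from 37.9 to 40.0 TPM in scramble and from 22.6 to 32.7 TPM in the siRNA samples; NQO1 is lower in the Nrf2 siRNA and double-siRNA groups and overlaps scramble with Pink1 siRNA.

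The base ATPases PSMC1 to PSMC6 form the ring that unfolds substrates, and they were divided around 0. PSMC3 measured 160, 147 and 167 TPM in scramble, 141, 167 and 188 with Pink1 siRNA, 169, 157 and 155 with Nrf2 siRNA, and 168, 173 and 202 with the double siRNA. Its double-siRNA samples all lay just above scramble (log2 difference 0.19, SE 0.14, adjusted p = 0.586). PSMC4 measured 48.4, 51.4 and 54.5 TPM in scramble, 47.2, 49.3 and 61.6 with Pink1 siRNA, 51.8, 53.3 and 58.5 with Nrf2 siRNA, and 47.5, 49.7 and 72.5 with the double siRNA. The lowest ATPase relative to scramble was PSMC6, at 89.2 ± 5.23 TPM in scramble and 66.7 ± 14.5 with Pink1 siRNA (log2 difference -0.44, SE 0.24). PSMC1 at 71.4 ± 3.25 TPM in scramble is uncertain, because its processed copies PSMC1P5 and PSMC1P1 are listed at means of 31.5 and 23.4 TPM over the 12 samples and the table does not show how reads shared between them were assigned. The other 7 subunit pseudogenes in the table were each below 1 TPM.

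The non-ATPase base subunits PSMD1, PSMD2 and PSMD4, the last of which is a ubiquitin receptor, lay nearest to scramble with either single siRNA. PSMD2 measured 346, 379 and 335 TPM in scramble, 282, 358 and 404 with Pink1 siRNA, 364, 441 and 386 with Nrf2 siRNA, and 338, 377 and 488 with the double siRNA. PSMD4 measured 109, 94.7 and 107 TPM in scramble, 98.7, 108 and 133 with Pink1 siRNA, 106, 98.5 and 112 with Nrf2 siRNA, and 99.4, 117 and 159 with the double siRNA. All 3 siRNA groups overlapped scramble for both genes. The largest difference here was 0.25 for PSMD4 with the double siRNA (SE 0.18, adjusted p = 0.573).

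The lid subunits form the horseshoe around the deubiquitinase PSMD14. PSMD3 measured 49.3, 55.3 and 57.4 TPM in scramble, 37.3, 40.7 and 53.9 with Pink1 siRNA, 58.1, 45.3 and 42.0 with Nrf2 siRNA, and 70.8, 53.6 and 75.4 with the double siRNA. It was the subunit gene with the largest mean excess over scramble, 0.29 on the log2 scale with the double siRNA (SE 0.18, adjusted p = 0.520), and the groups overlapped. PSMD11, a lid scaffold subunit, measured 43.0, 45.2 and 49.2 TPM in scramble, 50.2, 47.6 and 56.3 with Pink1 siRNA, 54.3, 49.7 and 46.1 with Nrf2 siRNA, and 43.9, 61.9 and 59.5 with the double siRNA. Its differences of 0.16, 0.12 and 0.25 ran against the majority of the subunit genes, with SE of 0.15 each.

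PSMD12 measured 32.9, 38.9 and 31.5 TPM in scramble, 30.2, 34.9 and 23.9 with Pink1 siRNA, 25.4, 24.96 and 31.2 with Nrf2 siRNA, and 18.8, 39.2 and 34.7 with the double siRNA. It was apart from scramble with Nrf2 siRNA by a narrow margin. PSMD8 was lower with Nrf2 siRNA, at 89.2, 92.3 and 84.9 TPM against 115, 104 and 117 in scramble (log2 difference -0.33, SE 0.12, adjusted p = 0.277), and stood at 112 ± 7.57 TPM with Pink1 siRNA, level with its scramble mean of 112 ± 6.80. The Nrf2 siRNA difference of PSMD8 passed the test when samples were weighted by their spread, and under no other alternative tried. PSMD14 differed by -0.35 with Pink1 siRNA and was apart from scramble in both single siRNA groups. With Nrf2 siRNA the margin was very narrow, the highest sample at 64.5 TPM against 64.6 TPM for the lowest scramble sample. PSMD6, PSMD7 and PSMD13 differed by between -0.43 and -0.06 in the 3 comparisons.

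PSMD5, PSMD9 and PSMD10 are chaperones of the base. PSMD5 measured 23.8, 25.7 and 23.2 TPM in scramble, 19.7, 16.8 and 19.4 with Pink1 siRNA, 19.1, 18.95 and 17.2 with Nrf2 siRNA, and 17.8, 20.5 and 17.2 with the double siRNA. All 9 siRNA samples were below scramble, and the group means were 76.9%, 76.1% and 76.3% of the scramble mean. The log2 differences were -0.36, -0.38 and -0.38 (SE 0.13 each), with adjusted p values of 0.272, 0.257 and 0.220. With samples weighted by their spread, PSMD5 passed the test with Pink1 siRNA and with Nrf2 siRNA, and under no other alternative tried. PSMD9 and PSMD10 differed by between -0.22 and 0.02 and overlapped scramble in all 3 comparisons.

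**Figure D4:**
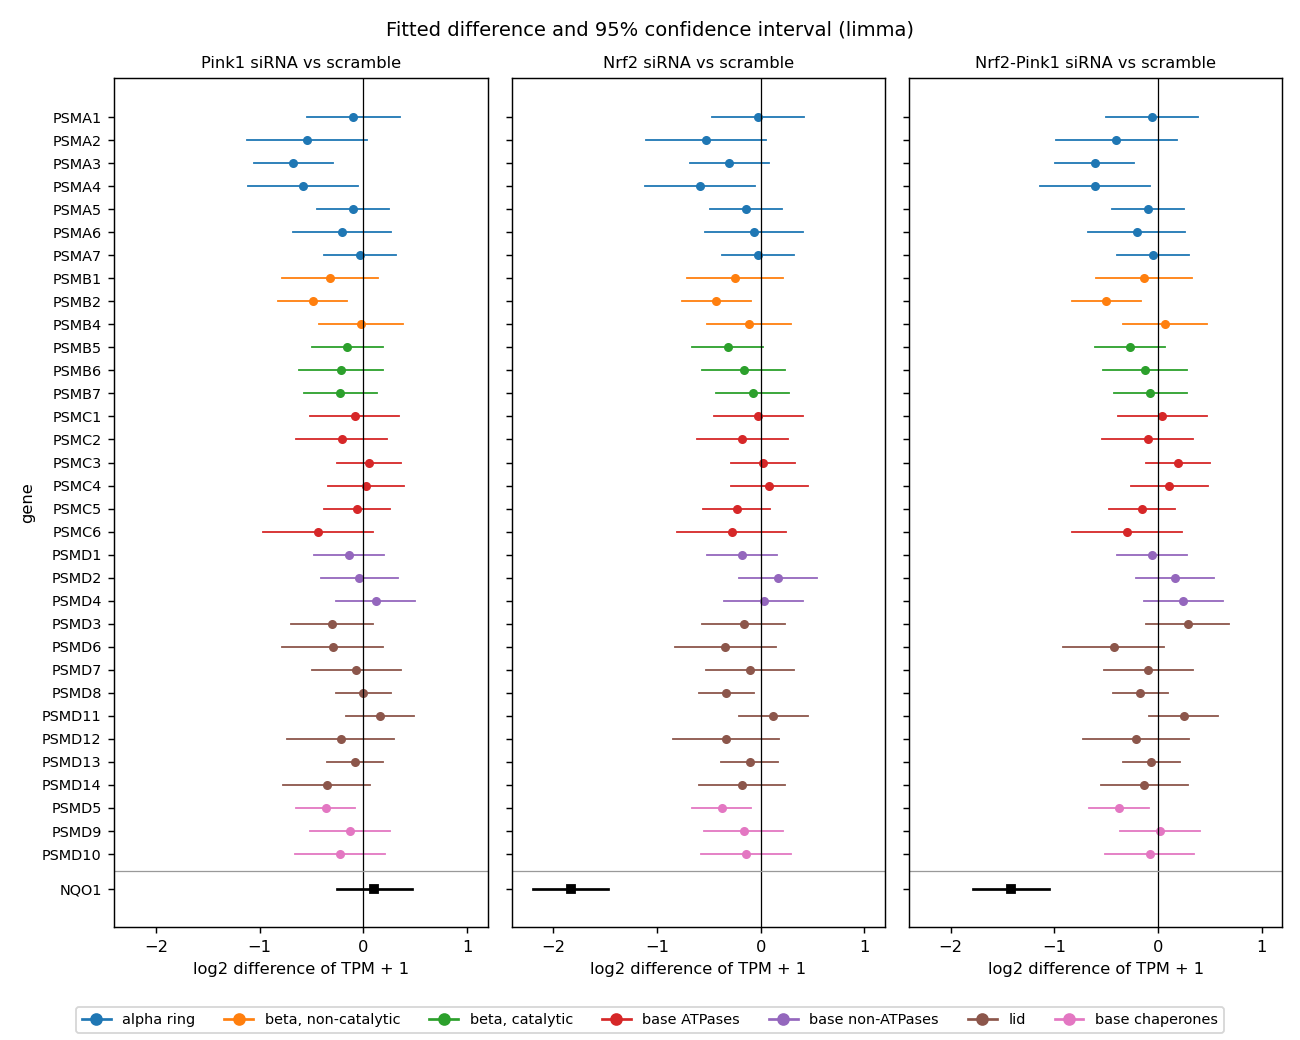
Fitted log2 difference of TPM + 1 from scramble with its 95% confidence interval for each subunit gene, coloured by role, and for NQO1, in the 3 siRNA groups. Most subunit genes lie to the left of 0 with intervals that cross it, and the NQO1 difference of -1.83 with Nrf2 siRNA is larger than that of any subunit gene.

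The precision sets what these values can show. The median SE of a subunit gene was 0.18 on the log2 scale. The 95% confidence interval lay within a 2-fold change in either direction for 30 of 33 subunit genes with Pink1 siRNA, 31 with Nrf2 siRNA and 32 with the double siRNA. The lowest bound in the 3 comparisons was -1.13 (PSMA2), -1.12 (PSMA4) and -1.14 (PSMA4). A missed threshold does not show that the levels were equal.

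The spread within the double-siRNA group followed 2 samples. Averaged over the 33 genes, the log2 difference from the scramble mean was -0.46 in replicate 1 of the double siRNA, -0.08 in replicate 2 and 0.19 in replicate 3. The Pink1 siRNA samples stood at -0.28, -0.16 and -0.14, and the Nrf2 siRNA samples at -0.08, -0.30 and -0.14. TPM is a share of a fixed total, and replicates 1 and 3 of the double siRNA were the samples with the highest and the lowest share of ENSG00000226958, 41.4% and 15.5%.

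With ENSG00000226958 removed and each sample rescaled to the same total, all 9 siRNA samples lay below all 3 scramble samples in this average. The double siRNA samples then stood at -0.30, -0.19 and -0.18, the Pink1 siRNA samples at -0.25, -0.21 and -0.34, and the Nrf2 siRNA samples at -0.17, -0.21 and -0.19, with scramble between -0.03 and 0.03. The subunit genes together made up 0.584% to 0.604% of the remaining TPM in scramble and 0.494% to 0.545% in the siRNA samples. The counts of genes apart and lower became 20, 19 and 15 of 33 with Pink1, Nrf2 and double siRNA, against 14.3%, 10.7% and 14.2% of all genes.

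Rescaling by median-of-ratios, which aligns the bulk of genes, gave 13, 17 and 8 of 33, against 13.3%, 11.4% and 10.9%. There the double siRNA samples averaged -0.26, -0.16 and 0.01, so replicate 3 stayed level with scramble and did not join the others.

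**Figure D5:**
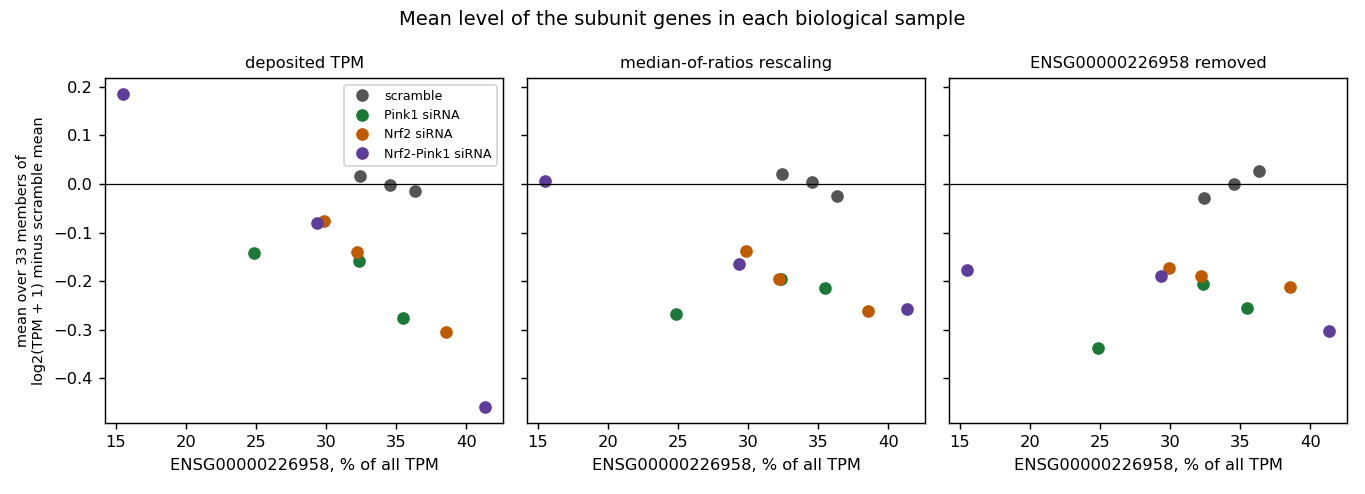
Mean over the 33 subunit genes of log2(TPM + 1) minus the scramble mean (vertical axis) against the share of TPM taken by ENSG00000226958 (horizontal axis, %) for the 12 samples, as deposited, after median-of-ratios rescaling and after removal of that identifier. As deposited the values run from -0.46 to 0.19; with the identifier removed all 9 siRNA samples lie between -0.34 and -0.17.

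Under both rescalings PSMA3 and PSMB2 passed the test as lower. With Pink1 siRNA, PSMA3 differed by -0.71 (SE 0.12, adjusted p = 0.0130) under median-of-ratios and by -0.75 (SE 0.12, adjusted p = 0.0118) with the identifier removed, and PSMB2 by -0.52 (adjusted p = 0.0371) and -0.56 (adjusted p = 0.0242). With the double siRNA, PSMA3 differed by -0.63 (adjusted p = 0.0162) and -0.72 (adjusted p = 0.0107), and PSMB2 by -0.52 (adjusted p = 0.0281) and -0.61 (adjusted p = 0.0113). These 2 were the only subunit genes called against scramble under either rescaling. With Nrf2 siRNA none was called; PSMB2 came nearest, at adjusted p values of 0.0697 and 0.0674. More genes were called overall as well: 1.24% and 1.17% of all genes tested with Pink1 siRNA, 1.07% and 0.889% with Nrf2 siRNA, and 2.43% and 2.06% with the double siRNA.

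By role, the alpha ring averaged -0.32 ± 0.083 (SD over 3 samples) on the log2 scale with Pink1 siRNA as deposited, -0.24 ± 0.20 with Nrf2 siRNA and -0.29 ± 0.40 with the double siRNA. The non-ATPase base subunits averaged -0.02 ± 0.16, 0.00 ± 0.054 and 0.12 ± 0.30. The lid averaged -0.15 ± 0.051, -0.18 ± 0.092 and -0.07 ± 0.30. The non-catalytic beta subunits averaged -0.28, -0.26 and -0.19, the catalytic beta subunits -0.20, -0.19 and -0.16, and the base chaperones -0.24, -0.23 and -0.15. The base ATPases averaged -0.12, -0.10 and -0.04. In every siRNA group the alpha ring was below the non-ATPase base subunits, under all 3 scalings. With Nrf2 siRNA the non-catalytic beta subunits were lower still, so the low level was not particular to the alpha ring. These differences between roles were noticed in the data and were not tested.

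The siRNA groups were also compared with each other, and again 0 of 33 subunit genes were called. Between the double siRNA and Pink1 siRNA the share called among all genes was 0.0434%, between the double siRNA and Nrf2 siRNA 0.0145%, and between Pink1 siRNA and Nrf2 siRNA 0.992%. At an unadjusted p under 0.05, 1 subunit gene was higher in each of these comparisons: PSMD3 in the first 2 and PSMD8 in the third. Of all genes, 2.44%, 2.61% and 5.3% were higher at that level. PSMD3 was higher with the double siRNA than with Pink1 siRNA by 0.59 (SE 0.18, adjusted p = 0.508) and than with Nrf2 siRNA by 0.45 (SE 0.18, adjusted p = 0.652). PSMD8 was higher with Pink1 siRNA than with Nrf2 siRNA by 0.33 (SE 0.12, adjusted p = 0.302), and its groups did not overlap. PSMA3 was apart in the other direction, by -0.37 (SE 0.18, adjusted p = 0.454). These were the only 2 subunit genes apart in that comparison, against 9.41% of all genes apart and higher and 9.42% apart and lower. In the double siRNA, PSMD8 was apart from both single siRNAs, lower than with Pink1 siRNA and higher than with Nrf2 siRNA, and no other subunit gene was; of all genes, 5.68% were apart and lower and 3.18% apart and higher than with Pink1 siRNA, and 5.66% and 3.83% than with Nrf2 siRNA.

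The number of subunit genes below 0 in these comparisons moved with the scaling, as did the share of all genes. Below 0 were 9 of 33 genes in the double siRNA against Pink1 siRNA, 9 in the double siRNA against Nrf2 siRNA and 17 in Pink1 siRNA against Nrf2 siRNA as deposited, where all genes had 51.6%, 50.9% and 48.7%. With ENSG00000226958 removed these were 13, 22 and 27, against 57%, 63% and 56.1% of all genes, whose medians were then -0.039, -0.085 and -0.041. Under median-of-ratios they were 6, 8 and 18, against 49.2%, 49.9% and 49.9%.

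Taking the 2 siRNAs as factors, 0 of 33 genes were called for the Nrf2 siRNA main effect, against 0.731% of all genes, and 0 for the Pink1 siRNA main effect, against 0.652%. At an unadjusted p under 0.05, 1 gene (PSMD8) was lower for the first, against 4.9% of all genes, and 2 (PSMA3 and PSMB2) for the second, against 6.5%. PSMA3 had a Pink1 siRNA main effect of -0.49 (SE 0.12, adjusted p = 0.0945), which passed at adjusted p values of 0.0110 under median-of-ratios and 0.00659 with ENSG00000226958 removed. The list's medians were -0.03 for Nrf2 siRNA and -0.05 for Pink1 siRNA. With single samples left out they ran from -0.14 to 0.056 and from -0.11 to 0.039, the low ends without replicate 3 of the double siRNA and the high ends without its replicate 1, so neither sign held throughout. Below 0 were 22 of 33 genes for the Nrf2 siRNA main effect, against 49.6% of all genes, and 24 for the Pink1 siRNA main effect, against 48%. With the identifier removed these were 25 and 29, against 53.7% and 61% of all genes.

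The interaction asks whether the double siRNA differs from the sum of the single siRNAs. No subunit gene was called, and no gene of the 13810 was (0%). Of the 33 subunit genes 32 had a value above 0, where 54% of all genes lay below 0, and the median was 0.21 against -0.03. The genes were measured in the same samples and are not independent, so these are not 32 separate sightings. The interaction also uses the same scramble samples as the comparisons above. PSMD3 had the largest value, 0.75 (SE 0.26, unadjusted p = 0.0127, adjusted p = 0.783), and was the only one at an unadjusted p under 0.05, against 5.45% of all genes. PSMD11 was the 1 gene below 0, at -0.04. The median was 0.09 without replicate 3 of the double siRNA and 0.39 without replicate 1. It was 0.20 with ENSG00000226958 removed.

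The differences were also set beside the promoter motifs. With Nrf2 siRNA the 8 genes holding TGACNNNGC had a median log2 difference of -0.21, from -0.58 (PSMA4) to 0.08 (PSMC4), and the 20 without it -0.14. With Pink1 siRNA these medians were -0.18 and -0.13, and with the double siRNA -0.10 and -0.10. The 15 genes holding CCAAT had medians of -0.22, -0.23 and -0.15 with Pink1, Nrf2 and double siRNA, and the 13 without it -0.10, -0.10 and -0.05. PSMA3 and PSMB2 hold CCAAT and not TGACNNNGC in the window. These are descriptions of small sets, with no test.

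The immunoproteasome subunits replace the 3 catalytic subunits in cells exposed to interferon, and 0 of 3 were called against scramble. PSMB8 measured 48.5, 68.1 and 64.0 TPM in scramble, 35.3, 37.6 and 45.1 with Pink1 siRNA, 40.5, 73.0 and 60.6 with Nrf2 siRNA, and 35.7, 39.6 and 47.8 with the double siRNA. Both groups given Pink1 siRNA lay below scramble, with log2 differences of -0.59 (SE 0.21, adjusted p = 0.267) and -0.54 (SE 0.21, adjusted p = 0.274). With the double siRNA the margin was narrow, the highest sample at 47.8 TPM against 48.5 TPM in scramble replicate 1. The Nrf2 siRNA group overlapped scramble. PSMB9 averaged 19.7 ± 7.05 TPM in scramble, 9.45 ± 3.16 with Pink1 siRNA, 21.6 ± 7.14 with Nrf2 siRNA and 12.6 ± 8.31 with the double siRNA. PSMB10 averaged 15.7 ± 2.13 TPM in scramble and 17.3 to 18.9 TPM in the siRNA groups.

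Among the genes that act with the proteasome, none was called in any of the 3 comparisons with scramble in the lists of activators and inhibitor (5 tested), core assembly chaperones (6), other proteasome-bound proteins (7), the NRF1 route with small MAF partners (7), p97 cofactors and shuttle factors (8), ubiquitin genes and E1 enzymes (6), cytosolic heat shock genes (10), the TRiC chaperonin (8) and the COP9 signalosome (9). Core assembly chaperones, which build the rings, had medians of -0.26, -0.20 and -0.20 with Pink1, Nrf2 and double siRNA. Ubiquitin and E1 genes had medians of 0.13, 0.10 and 0.23. NFE2L1, which encodes NRF1, averaged 54.3 ± 1.03 TPM in scramble, 48.3 ± 7.10 with Pink1 siRNA, 46.3 ± 5.57 with Nrf2 siRNA and 45.1 ± 5.68 with the double siRNA. It was apart from scramble in the last 2 groups and was not called.

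The NRF2 target list, by contrast, held calls in the same fit. With Nrf2 siRNA 3 of 16 targets were called lower, against 0.333% of all genes called. They were NQO1, AKR1C3, an aldo-keto reductase, at -1.19 (adjusted p = 0.0181), and TXNRD1, the cytosolic thioredoxin reductase, at -0.88 (adjusted p = 0.0236). Of the 16 targets 14 lay below 0, against 47.5% of all genes, and the values ran from -1.83 to 0.40. With the double siRNA 2 of 16 were called lower, against 0.753% of all genes called. They were NQO1 at -1.42 (adjusted p = 0.00301) and AKR1C3 at -0.98 (adjusted p = 0.0232). Here 10 of the 16 lay below 0, against 48.5% of all genes, and the highest value was 0.55. With Pink1 siRNA 0 of 16 were called, against 0.471% of all genes, the smallest adjusted p being 0.148.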

How the data were processed

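Per the submitters' processing notes, STAR, RSEM and edgeR were used with GRCh37 and hg19, with versions not given in the sources used here. TPM was deposited by the authors for 24053 Ensembl identifiers in 24 columns, each summing to 999678 to 999945. TPM keeps no read counts, so depth and intervals that need it are unknown. Symbols came from the name table given with the data (22789 identifiers matched).

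Technical pairs were averaged. The 13810 genes averaging 1 TPM or more were fitted as log2(TPM + 1) with limma 3.58.1 (R 4.3.3, trended empirical Bayes, 8 residual and 4.93 prior degrees of freedom, 12 samples), with Benjamini-Hochberg adjustment over all genes tested. Fold changes on this scale understate those of low genes. The code was tested on simulated data. The members and gene lists were chosen with earlier results of these data known. Values in every sample are given for the catalytic subunits, the 3 largest differences in each direction per siRNA group, and the 3 highest and 3 lowest mean levels; PSMC6, PSMD8 and other genes were added after their values were seen.

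Alternatives were pseudocounts of 0.1 and 5, no filter, a minimum of 5 TPM, 2 rescalings, the compared groups alone, a replicate block, single technical replicates, limma sample weights, and leaving out each sample. Sample weights used the gene-by-gene method, chosen after the default method had not converged and its calls had been seen. Promoter sequences are from RefSeq (GRCh38.p14).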

Additional observations from a re-analysis of the deposited data

How the results depend on the processing

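No subunit gene was called in any comparison as reported, and 157 of 171 counts under the alternatives were also 0. Against scramble the count was 0 under 13 of 18 alternatives with Pink1 siRNA. It was 0 under 17 of 18 with Nrf2 siRNA and under 14 of 17 with the double siRNA. The siRNA groups compared with each other, and the interaction, gave 0 under every alternative. The counts above 0 were all lower calls, under settings that also called more of all genes. Those shares follow each count. Against scramble, Pink1 siRNA gave 2 under each rescaling (PSMA3 and PSMB2; 1.24% and 1.17%), 3 with sample weights (also PSMD5; 4.82%), and 1 (PSMA3) with the compared groups alone (1.42%) or, as chosen after seeing the data, after dropping the double-siRNA samples from the model (1.26%). Nrf2 siRNA gave 3 with sample weights (PSMB2, PSMD5 and PSMD8; 4.33%). The double siRNA gave 2 under each rescaling (2.43% and 2.06%) and 1 (PSMB2) with sample weights (6.83%). The Nrf2 siRNA main effect gave 1 with sample weights (PSMD8; 6.23%). The Pink1 siRNA main effect gave 1 under median-of-ratios (2.55%), 2 with ENSG00000226958 removed (2.24%), 2 with sample weights (5.34%), and from 0 to 1 with single samples left out (1, PSMA3, without replicate 1 of the double siRNA; 1.47%). With single samples left out, the list's median ranged from -0.27 to 0.081 for the double siRNA against scramble, from -0.10 to 0.25 against Pink1 siRNA and from -0.12 to 0.22 against Nrf2 siRNA, the ends being set by replicates 3 and 1 of the double siRNA. The cause was not tested.

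Some small differences of single genes, none of them called, changed sign. PSMC3 with Pink1 siRNA was -0.018 with ENSG00000226958 removed and ran from -0.042 without Pink1 siRNA replicate 3 to 0.16 without replicate 1. PSMD4 with Pink1 siRNA was -0.0035 in technical replicate 1 alone and ran from -0.003 without Pink1 siRNA replicate 3 to 0.21 without replicate 1, and PSMC4 with Nrf2 siRNA was -0.014 in technical replicate 1 alone. With the double siRNA, PSMB6 ran from -0.33 without replicate 3 of that group to 0.0585 without replicate 1, and PSMB7 from -0.19 to 0.0997; PSMB7 was 0.023 in technical replicate 2 alone and 0.0165 with sample weights.

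Same-numbered samples of different groups had deviations that correlated at -0.085 to 0.11, with 1 of 18 above 0.1. Differently numbered samples ran from -0.13 to 0.17, so no pairing by replicate number was seen in these values. Whether same-numbered samples shared a batch was not tested. With a replicate block, 0 subunit genes were called in each comparison. Each group holds every replicate number once, so the block cannot change the medians, which are -0.16, -0.17 and -0.10 against scramble. Unknown depth leaves the counting error of single values unmeasured.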

Other observations

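The TRiC chaperonin, which folds actin and tubulin and is, like the proteasome, a ring of different subunits, had all 8 genes below 0 with Nrf2 siRNA, with a median log2 difference of -0.25 and 7 of 8 apart from scramble, against 9.26% of all genes; none was called. With Pink1 siRNA and the double siRNA its medians were 0.00 and 0.02. The COP9 signalosome, a complex related in structure to the proteasome lid, had medians of -0.14, -0.06 and 0.03 with Pink1, Nrf2 and double siRNA.

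PSMC1P5, a processed copy of PSMC1, was listed at 21.8, 87.2 and 38.2 TPM in scramble and at 32.1, 8.32 and 0 TPM with the double siRNA, while PSMC1 itself measured 72.2, 74.2 and 67.9 TPM and 50.9, 83.3 and 93.3 TPM in the same samples. PSMC1P1 measured 25.1, 22.6 and 20.1 TPM in scramble.

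Of 11 tested pigment epithelium identity genes, 2 were called in each siRNA group, TYRP1 and TYR, both higher. The shares called among all genes were 0.471%, 0.333% and 0.753% with Pink1, Nrf2 and double siRNA. The 3 groups were compared with the same scramble samples. TYR averaged under the 1 TPM minimum in scramble and entered the test only through the siRNA groups, where it was high. Its calls are therefore not independent of the filter. RLBP1 and SERPINF1 entered the test in the same way. With Pink1, Nrf2 and double siRNA 3, 3 and 4 of the 11 genes lay below 0, against 46.7%, 47.5% and 48.5% of all genes. KRT18 averaged 811 ± 69.3 TPM in scramble and 564 ± 93.0 TPM with Nrf2 siRNA, and was not called. TYRP1, a melanin synthesis enzyme, averaged 9.92 ± 1.70 TPM in scramble, 45.5 ± 6.70 with Pink1 siRNA (adjusted p = 0.000560), 23.2 ± 1.84 with Nrf2 siRNA (adjusted p = 0.0248) and 26.6 ± 7.11 with the double siRNA (adjusted p = 0.00856). TYR, the tyrosinase, averaged 0.402 ± 0.18 TPM in scramble and 3.72 ± 0.35, 2.65 ± 0.55 and 4.09 ± 0.63 TPM in these groups. PMEL, a melanosome structural protein, was not called and averaged 5.08 ± 1.79 TPM in scramble and 4.83 ± 0.50, 6.98 ± 0.18 and 4.12 ± 0.96 TPM. Of 13 markers of other cells (blood, endothelium, neurons, glia and photoreceptors), 5 were in the table and 1, CD68, passed the filter; the list's summed level was 19.4 to 39.5 TPM in scramble, 25.7 to 35.3 TPM with Pink1 siRNA, 34.5 to 53.3 TPM with the double siRNA, both overlapping scramble, and 42.6 to 105 TPM with Nrf2 siRNA, above it; its part in the results was not tested.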
